A study of Mus musculus with 15 samples.

Results

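The 10 contractile genes of myofibroblasts described here were Myh9, Myl9, Acta2, Tpm1, Tpm2, Tpm4, Tagln, Cnn1, Cald1 and Smtn, taken as a named list. Their chromatin was read at 394 of 206367 consensus peaks, those whose nearest protein-coding gene interval in mm10, within 100 kb of the peak centre, belonged to 1 of these genes. Accessibility was measured by Omni-ATAC-seq, which maps open chromatin by where a transposase can cut and tag DNA, in 15 libraries of mouse embryonic fibroblasts, connective tissue cells grown from embryos. Each of 5 groups held 3 libraries, and the strain label of all of them was a C57/B16 background. Ezh2 inhibitor cells received GSK343, which blocks Ezh2, the enzyme that places the silencing mark H3K27 methylation, at 4 µM for 3 days with 1 washout day. Early Fra2 and late Fra2 cells carried a lentiviral CRISPRa-VPR-mCherry construct, a guided transcriptional activator, with guides against Fosl2, which encodes Fra2, a subunit of the transcription factor AP-1. Late control and early control cells carried the same construct with scrambled guides. The guide libraries came from cells sorted as positive for mCherry and for THY1, a fibroblast surface protein. The sample labels give day 4 for the inhibitor libraries and early control 3, day 3 for early Fra2 and the other 2 early controls, and day 10 for late libraries, while the series text gives days 4 and 11, so the times are called early and late here. The inhibitor is thus set against a control group of mixed day labels. Transduction and sorting are not stated for the inhibitor cells, and a difference there cannot be told apart from the inhibitor itself. The labels do not tie replicates to separate cultures, so the p-values reflect variation among these libraries alone, and that variation may be technical.

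Myofibroblasts are fibroblasts that have built a contractile apparatus of actin and non-muscle myosin, and they pull wounds together and stiffen scars. Myh9 encodes the heavy chain of non-muscle myosin IIA, and Myl9 a regulatory light chain whose phosphorylation switches the motor on. Acta2 encodes smooth muscle alpha-actin, and tropomyosins from Tpm1, Tpm2 and Tpm4 lie along the actin filament and set which proteins reach it. Tagln (transgelin), Cnn1 (calponin), Cald1 (caldesmon) and Smtn (smoothelin) bind actin, and calponin and caldesmon restrain the motor. Many of these genes are activated by serum response factor (SRF) with its MRTF cofactors at CArG boxes. TEAD factors bind GGAATG and AP-1 binds TGANTCA.

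The upstream sequence of 4 start sites is shown, each holding a motif just named. Each run is the 250 bases before the start in the RefSeq table (GRCm38.p6), 5′ to 3′ on the gene's strand, with motif matches in capitals. Acta2 and Myl9 carry CArG-type motifs, Tpm1 holds GGAATG, and the internal start of Cald1 holds the AP-1 motif.
Acta2 (chr19:34255374-34255623, minus strand): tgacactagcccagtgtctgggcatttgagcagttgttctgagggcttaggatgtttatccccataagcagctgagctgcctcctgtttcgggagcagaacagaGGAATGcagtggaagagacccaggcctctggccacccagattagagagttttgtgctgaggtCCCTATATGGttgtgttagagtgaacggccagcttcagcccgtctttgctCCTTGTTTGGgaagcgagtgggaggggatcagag
Myl9 (chr2:156775214-156775463, plus strand): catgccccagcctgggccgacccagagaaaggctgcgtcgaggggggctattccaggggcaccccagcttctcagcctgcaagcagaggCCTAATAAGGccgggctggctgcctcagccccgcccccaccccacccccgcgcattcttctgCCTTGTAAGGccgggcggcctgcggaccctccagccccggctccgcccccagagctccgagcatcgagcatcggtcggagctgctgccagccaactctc
Tpm1 (chr9:67049214-67049463, minus strand): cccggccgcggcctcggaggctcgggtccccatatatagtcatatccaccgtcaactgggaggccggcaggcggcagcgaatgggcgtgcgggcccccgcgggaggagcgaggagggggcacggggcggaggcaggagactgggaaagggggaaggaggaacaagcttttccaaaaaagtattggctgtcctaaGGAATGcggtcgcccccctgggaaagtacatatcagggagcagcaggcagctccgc
Cald1 second start (chr6:34709194-34709443, plus strand): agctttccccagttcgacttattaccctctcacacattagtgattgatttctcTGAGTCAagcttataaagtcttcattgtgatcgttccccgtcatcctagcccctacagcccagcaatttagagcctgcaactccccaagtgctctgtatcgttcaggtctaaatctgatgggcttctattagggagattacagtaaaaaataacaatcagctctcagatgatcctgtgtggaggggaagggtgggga
Both strands were searched and positions count back from the start. In Acta2, GGAATG lay at −146 to −141, and CArG boxes with 1 other base in the core lay at −84 to −75 and −34 to −25. In Myl9, a full CArG box lay at −161 to −152 and one with 1 other base at −99 to −90. GGAATG lay at −56 to −51 in Tpm1, and TGANTCA at −197 to −191 in Cald1. GGAATG also lay at −222 to −217 in Smtn (minus strand) and at −153 to −148 of the first Cald1 start, which are not printed. The windows of Cnn1, Tpm2, Tpm4 and Myh9 held none of these motifs, and Tagln had no window to search. CArG-type motifs were thus found at Acta2 and Myl9 only. A full CArG box was found in 1.4% of 17491 promoters, one with up to 1 other base in 8.56%, TGANTCA in 6.22% and GGAATG in 11.6%. These are letters in a window, not measured binding.

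Libraries held 6.75 to 25.3 M (mega) reads in peaks, and a floor of 3 counts came to 0.117 to 0.42 CPM (counts per mega reads in peaks, TMM-scaled). Early control 3, the shallowest and the only early control labelled day 4, stood apart: its log2 CPM correlated at 0.783 and 0.789 with its group, against 0.896 or more within the other groups and between the other 2 early controls. All comparisons with early control rest on it, and values without it are given for a part of the results that differ. Of the fibroblast markers, 22 gene-end peaks summed to 165 to 170 CPM in inhibitor, 169 to 196 in early Fra2, 149 to 161 in late Fra2, 178 to 201 in late control and 165 to 225 in early control libraries; Lum had no gene-end peak. Smooth muscle markers (15 gene-end peaks) summed to 99.9 to 105 CPM in inhibitor, 90.4 to 101 in early Fra2, 93.6 to 102 in late Fra2, 118 to 121 in late control and 96 to 116 in early control libraries, so late Fra2 libraries lay under late controls on both lists. Pericyte markers summed to 34.2 to 37.9 CPM in inhibitor, 35.4 to 38.0 in early Fra2, 29.8 to 30.1 in late Fra2, 34.8 to 37.5 in late control and 41.9 to 46.7 in early control libraries, so each treatment lay under its control there. Under this scaling, gene-end peaks of all genes also leaned lower. Their median log2 changes were −0.22 with early Fra2, −0.23 with late Fra2 and −0.15 with the inhibitor. Whether the marker differences go beyond this lean was not tested. Gene-end peaks were found for 5 of 5 pericyte, 4 of 10 skeletal and cardiac muscle, 3 of 5 endothelial, 3 of 5 epithelial and 3 of 5 macrophage genes. The strongest averaged 7.8 CPM at Kcnj8, 13 at Ckm, 5.87 at Kdr, 3.57 at Grhl2 and 11.5 at Cd68, beside 22.7 at fibroblast Vim. Every smooth muscle marker had a gene-end peak, from 3.13 CPM at Des to 24.3 at Lmod1, above Vim. Macrophage Csf1r and Spi1 stood at 9.52 and 9.04 CPM. The median of the strongest gene-end peak per gene was 8.41 CPM for fibroblast, 6.46 for smooth muscle and 9.04 for macrophage markers. The other fibroblast genes with a gene-end peak ran from 3.05 CPM at Prrx1 and 3.6 at Pdgfra to 17.6 at Col1a1. Muscle Myf5, Myog, Pax7, Nkx2-5, Myh6 and Actc1, endothelial Pecam1 and Emcn, epithelial Krt8 and Krt18 and macrophage Ptprc and Adgre1 had none. Muscle markers summed to 31.5 to 33.8 CPM in inhibitor, 30.8 to 34 in early Fra2, 33 to 33.6 in late Fra2, 35.2 to 37.3 in late control and 32.6 to 33.1 in early control libraries. Endothelial markers summed to 11.6 to 13.1 CPM in inhibitor, 14.3 to 16.4 in early Fra2, 13.1 to 15.1 in late Fra2, 11.7 to 13.4 in late control and 13.2 to 16 in early control libraries. Epithelial markers summed to 8.44 to 10.3 CPM in inhibitor, 8.31 to 10.8 in early Fra2, 8.43 to 10.4 in late Fra2, 8.95 to 10 in late control and 9.52 to 13.4 in early control libraries. Macrophage markers summed to 45.3 to 47.6 CPM in inhibitor, 47.2 to 51.3 in early Fra2, 52.3 to 57.4 in late Fra2, 51.4 to 58.2 in late control and 45.8 to 50.8 in early control libraries. The part of cell makeup in the results was not tested. In bulk libraries, fewer cells with an open site and less opening per cell cannot be told apart.

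Open chromatin at the contractile genes was spread unevenly. Cald1 had 137 peaks, Myh9 113 and Tpm1 68, against 16 each for Smtn and Tpm4, 12 each for Acta2 and Myl9, 9 for Tpm2, 7 for Tagln and 4 for Cnn1. The median of the 394 peaks was 4.11 CPM, against 3.27 CPM over all peaks. In the 15 deposited peak lists, 40.9% (early control 3) to 98.7% (late Fra2 1) of them were found, against 35.4 to 92.6% of all peaks, and 134 were in all 15 lists. All 394 passed the filter on low counts.

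Peaks were called at a Benjamini-Hochberg adjusted p under 0.05 (edgeR, over all 206349 tested peaks). Early Fra2 cells had 18 of the 394 peaks higher and 18 lower than early control cells, 4.57% each way, against a background of 10.1% higher and 4.91% lower over all peaks. Late Fra2 cells had 28 higher and 10 lower than late control cells, or 7.11% and 2.54%, against 6.45% and 3.54% of all peaks. Over the 10 genes these shares were near or under the background. Tpm1 held 10 of the early and 23 of the late gains, which is 14.7% and 33.8% of its 68 peaks. The other 9 genes (326 peaks) had 8 higher and 15 lower in early cells (2.45% and 4.6%) and 5 higher and 7 lower in late cells (1.53% and 2.15%). With the Ezh2 inhibitor 8 were higher and 2 lower than in early control cells (2.03% and 0.508%, against 0.552% and 0.341% of all peaks). Tpm1 and Myh9 held 4 of these gains each.

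The balance of gains and losses turned on the scaling. TMM over all peaks placed the median of all peaks at −0.03 (log2) for early Fra2 and −0.01 for late Fra2, while factors taken from gene-end peaks placed it at 0.18 and 0.23, and at 0.14 for the inhibitor. Under those factors, members had 60 higher and 5 lower in early Fra2 cells (15.2% and 1.27%, background 19.2% and 1.38%) and 66 higher and 0 lower in late Fra2 cells (16.8%, background 17.2% and 0.892%). With the inhibitor they had 36 higher and 2 lower (9.14% and 0.508%, background 3.84% and 0.255%). All 18 early, 28 late and 8 inhibitor gains were called under both scalings, but only 5 of the 18 early and 0 of the 10 late losses were. Single libraries also counted: early gains came to 9 without early Fra2 2 and 11 without early Fra2 1, and late gains to 15 without late control 3 and 16 without late Fra2 1 or late Fra2 2. Early losses came to 30 without early control 3, 11 without early Fra2 1 and 10 without early Fra2 3. Late losses came to 29 without early control 3, and to 3, 1, 2 and 0 without late control 2, late control 3, late Fra2 1 and late Fra2 2. Inhibitor gains came to 0 without inhibitor 3, 1 without early control 2, 2 without inhibitor 1, 4 without inhibitor 2, 5 without early Fra2 2 or late Fra2 2, and 17 without early control 3. Inhibitor losses came to 0 without any 1 of the inhibitor libraries and to 9 without early control 3.

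**Figure D1:**
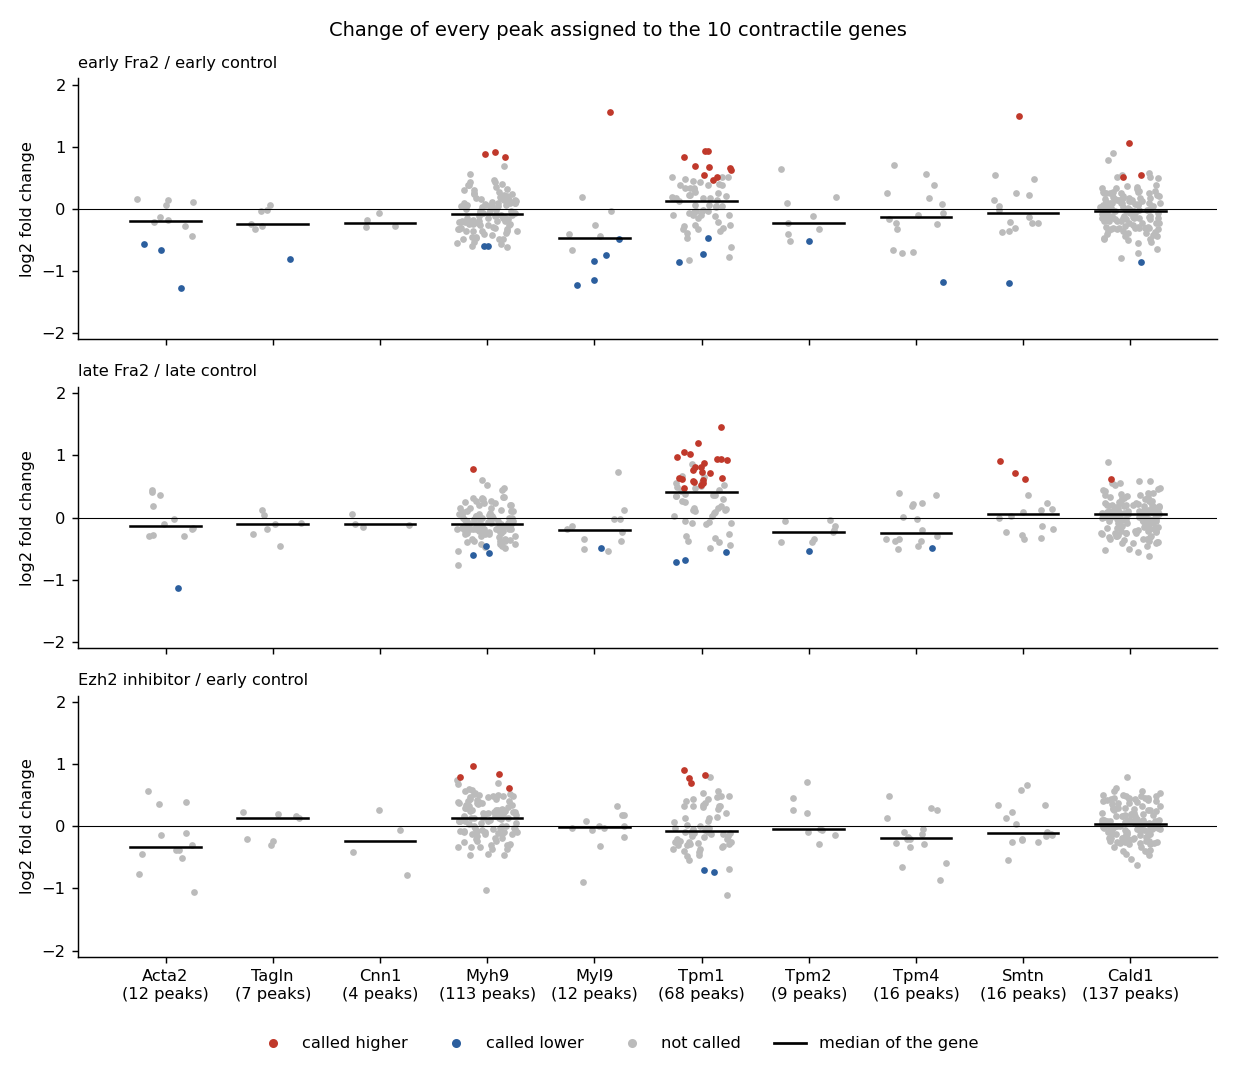
Log2 fold change (vertical axis) of every peak assigned to the 10 genes (horizontal axis), with 1 panel for each treatment against its control (early Fra2, late Fra2 and Ezh2 inhibitor); coloured points were called higher or lower. The late gains gather at Tpm1, with 23 of 28, and with the inhibitor calls lie at Tpm1 and Myh9.

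Tpm1 (chromosome 9, 67022590 to 67049672, minus strand) had the most gains. They concentrated in 20 adjacent peaks centred 19 to 33 kb past the start, from the distal part of the gene to beyond its end (67016078 to 67030411, 14.3 kb). This stretch was picked out after the values were seen, so no test is given for it. Summed over it, accessibility was 133, 135 and 142 CPM in inhibitor libraries, 127, 142 and 130 in early Fra2, 174, 173 and 170 in late Fra2, 95.5, 119 and 118 in late control and 95.9, 92.5 and 110 in early control libraries. Late Fra2 libraries stood highest, and no inhibitor or Fra2 library overlapped with a control library. Of its 20 peaks, 7 were called higher with early Fra2, 15 with late Fra2 and 4 with the inhibitor, and 0 lower in any of these. Median log2 fold changes were 0.40, 0.70 and 0.45. In late Fra2 cells all 20 were positive, at 0.26 to 1.2.

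**Figure D2:**
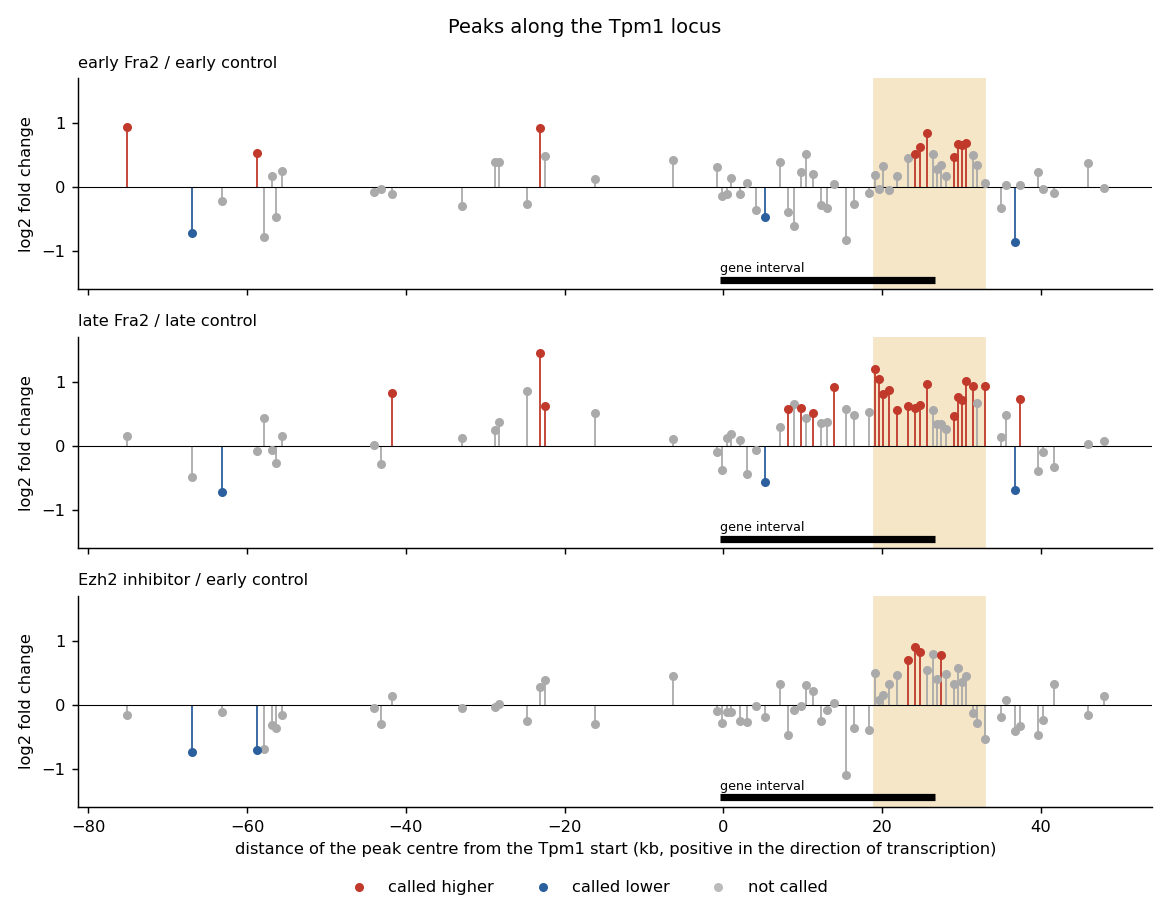
Log2 fold change of each Tpm1 peak (vertical axis) against the distance of its centre from the Tpm1 start in kb (horizontal axis, positive in the direction of transcription), with 1 panel per treatment. The shaded band from 19 to 33 kb holds 7 early, 15 late and 4 inhibitor gains.

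The Tpm1 gain of smallest p in both Fra2 comparisons was a peak at the distal end of Tpm1 (67023301 to 67023802), 25.7 kb past the start. It stood at 7.88, 8.31 and 8.29 CPM in early Fra2, 9.97, 10.1 and 9.15 in late Fra2, 4.26, 5.01 and 5.54 in late control and 4.29, 3.55 and 6.58 in early control libraries. Every Fra2 library lay above every control library. The log2 fold change was 0.84 ± 0.18 (SE) early (adjusted p = 0.000762) and 0.97 ± 0.17 late (adjusted p = 7.57e-05), and both calls held when any 1 of the 15 libraries was left out. Inhibitor libraries were in between at 5.89, 6.63 and 7.38 CPM, and their difference of 0.54 did not pass (adjusted p = 0.118).

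A gene-body peak 24.1 kb past the start (67024820 to 67025321) had the lowest inhibitor p in the set. It stood at 9.94, 10.9 and 13.2 CPM in inhibitor, 7.98, 10.4 and 8.07 in early Fra2, 15.3, 13.3 and 13.6 in late Fra2, 7.32, 9.65 and 10.8 in late control and 6.55, 6.17 and 5.18 in early control libraries. Early control libraries were lowest, without overlap. It was higher by 0.90 ± 0.17 with the inhibitor (adjusted p = 0.00438), 0.52 with early Fra2 (adjusted p = 0.0361) and 0.60 with late Fra2 (adjusted p = 0.00882), and by 0.61 in late against early control (adjusted p = 0.0373). The inhibitor call was lost without inhibitor 3 (adjusted p = 0.067), the early call without early Fra2 2 (adjusted p = 0.2) or early control 2 (0.0853), and the late call without late Fra2 1 (0.0636) or late control 1 (0.0677). The call between control times was lost without late control 2 (0.136), late control 3 (0.198) or early control 2 (0.101). The largest late gain of the stretch, 19.1 kb past the start (67029910 to 67030411), was 3.55, 4.80 and 4.67 CPM in late Fra2 against 1.42, 2.41 and 1.71 CPM in late control libraries (1.2 ± 0.25, adjusted p = 0.000818).

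**Figure D3:**
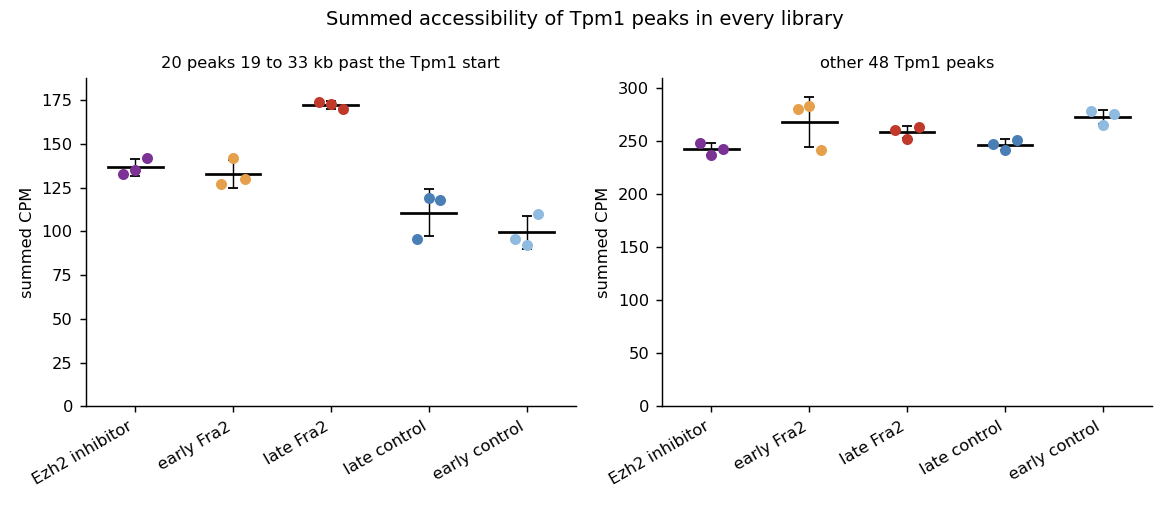
Summed CPM of Tpm1 peaks in each library (points) with the group mean ± SD (line and bars, n = 3), for the 20 peaks of the distal stretch and for the other 48 peaks. In the stretch, late Fra2 libraries lie at 170 to 174 and early control libraries at 92.5 to 110.

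Outside the stretch, Tpm1 moved less and in both directions. The other 48 peaks summed to 242 ± 5.54 CPM in inhibitor, 268 ± 23.4 in early Fra2, 258 ± 5.33 in late Fra2, 246 ± 5.14 in late control and 272 ± 6.84 in early control libraries (SD, n = 3 each). They held 3 gains and 3 losses early, and 8 gains and 3 losses late. A peak 23.1 kb upstream (67072041 to 67072542) was 3.56, 4.08 and 2.52 CPM in early Fra2 and 2.61, 2.93 and 2.70 in late Fra2, against 1.2, 1.09 and 0.731 in late control and 1.29, 2.03 and 2.24 in early control libraries. All Fra2 libraries were above all controls, with gains of 0.93 ± 0.30 early (adjusted p = 0.026) and 1.46 ± 0.31 late (adjusted p = 0.00146). The late call held in all 15 fits that left out 1 library, and the early one was lost without early Fra2 1 (adjusted p = 0.089), early Fra2 2 (0.121) or early control 1 (0.173). In the opposite direction, a peak past the gene, 36.7 kb from the start, fell in both: it was 3.04, 3.28 and 3.39 CPM in early Fra2 and 2.27, 2.35 and 2.70 in late Fra2, against 4.41, 3.26 and 4.14 in late control and 6.76, 6.09 and 4.06 in early control libraries (early −0.86 ± 0.21, adjusted p = 0.0024; late −0.69, adjusted p = 0.0289, but 0.138 under gene-end factors). The late call was also lost without late Fra2 1 (adjusted p = 0.112), late Fra2 2 (0.0936), late control 1 (0.091) or late control 3 (0.111).

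Gains at both times covered 8 Tpm1 peaks, 80.0% of the early and 34.8% of the late ones. The matching shares over all peaks were not computed, so these are not shown to be particular to Tpm1. Of the 23 late gains, 23 were also called with gene-end factors, 20 with DESeq2 and 9 in every fit that left out 1 library; without 1 of the late control libraries, late Fra2 1 or late Fra2 2 the late count came to between 13 and 15. The early count of 10 came to 4 and 6 without early control 1 and early control 2, and to 6 and 3 without early Fra2 1 and early Fra2 2. Around Tpm1, 51 peaks centred from 66826189 to 67235580 were assigned to its neighbours Aph1c, Rab8b, Rps27l, Lactb and Tln2. Of these, 3 were higher and 4 lower early and 2 higher and 3 lower late, with medians per gene of −0.30 to 0.20. Peaks of these genes further out were not counted. Within the gene body, late control cells lay under early control cells at 20 of 25 peaks (median −0.36), of which 2 were called. In the distal stretch, late controls were not lower, at 111 ± 13.3 CPM against 99.6 ± 9.51 CPM in early control libraries (SD, n = 3 each), with a median log2 change of 0.16.

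At the start-site peaks, the pattern was a lowered tendency and few calls. Tagln, with no promoter window, is counted here by its most accessible gene-end peak. Of the 10 start-site peaks, edgeR and DESeq2 called 0 higher in each treatment, and 0 were higher at an unadjusted p under 0.05. Losses numbered 1 with early Fra2 and 3 with late Fra2 by edgeR, and 2 and 4 by DESeq2. With the inhibitor both tools called 0 lower, and 2 were lower at an unadjusted p under 0.05. All 10 log2 fold changes were negative in each treatment (medians −0.16, −0.32 and −0.29), beside gene-end peaks of all genes with medians of −0.22, −0.23 and −0.15, with 2.18% higher and 7.87% lower early, 1.25% higher and 8.97% lower late, and 0.146% higher and 0.569% lower with the inhibitor. Under gene-end factors, 6 of the 10 early values and 2 of the late values turned positive and the calls ended. Early control 3 was the lowest early control at all 10 of these peaks. Without that library in the fit, the Tpm1 start-site peak was also called lower late (−0.38, adjusted p = 0.0179).

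**Figure D4:**
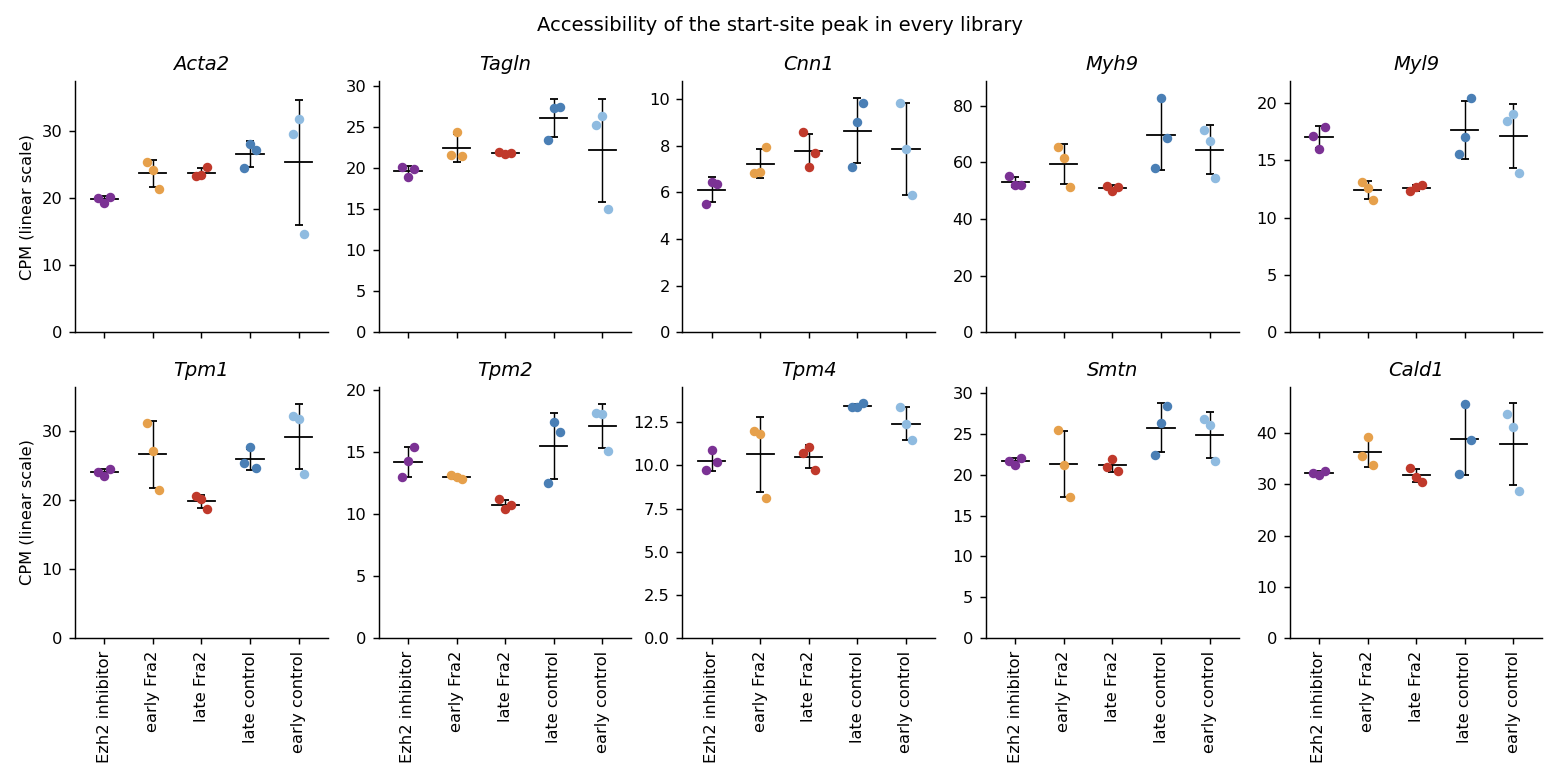
CPM of the start-site peak of each gene (1 panel each) in every library, with groups on the horizontal axis and the group mean ± SD (n = 3) as a line with bars. The Myl9 peak is lowest in the early and late Fra2 libraries, at 11.5 to 13.1 CPM, and early control 3 lies under its group at Acta2 and Tagln.

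Myh9 and Myl9 make the motor. The Myh9 start-site peak (chromosome 15, 77842274 to 77842775), the most accessible of the 394, was 55.1, 51.9 and 51.9 CPM in inhibitor, 65.3, 61.5 and 51.4 in early Fra2, 51.5, 49.7 and 51.4 in late Fra2, 58.0, 82.8 and 68.6 in late control and 71.3, 67.6 and 54.6 in early control libraries. Late Fra2 libraries lay under late controls, which spread widely. The difference of −0.46 ± 0.16 was called (adjusted p = 0.0484), but not with gene-end factors (−0.22, adjusted p = 0.138) or with cyclic loess, which turned its sign (0.07, adjusted p = 0.516). It was called in 4 of 15 fits that left out 1 library, with adjusted p up to 0.277 without late control 2. In the gene body a peak 56.2 kb past the start was 12, 12.8 and 11.7 CPM in inhibitor and 15, 16.2 and 13.1 in early Fra2, against 8.64, 8.12 and 6.72 in early control libraries. It rose by 0.89 ± 0.16 early (adjusted p = 4.44e-05) and 0.61 with the inhibitor (adjusted p = 0.0384), and the inhibitor call was found in 8 of 15 fits that left out 1 library, with adjusted p up to 0.145 without inhibitor 2. A second body peak, 46.9 kb past the start, was 7.91, 7.4 and 8.62 CPM in inhibitor against 4.56, 4.50 and 4.90 in early control libraries (0.79 ± 0.18, adjusted p = 0.0182). That call was lost without inhibitor 1 (adjusted p = 0.0693), inhibitor 3 (0.117) or early control 2 (0.0846). Over its 113 peaks Myh9 had 3 gains and 2 losses early (2.65% and 1.77%, against 10.1% and 4.91% of all peaks). It had 1 gain and 3 losses late (0.885% and 2.65%, against 6.45% and 3.54%).

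Myl9 (chromosome 2, 156775408 to 156781657, plus strand) lost accessibility in early Fra2 cells: 5 of its 12 peaks fell and 1 rose. These were 41.7% and 8.33%, against 4.91% and 10.1% of all peaks, and under gene-end factors 3 losses were called. The start-site peak, over the CArG sequence printed above, was 17.1, 16 and 17.9 CPM in inhibitor, 13.1, 12.6 and 11.5 in early Fra2, 12.3, 12.7 and 12.8 in late Fra2, 15.5, 17.0 and 20.4 in late control and 18.4, 19 and 13.9 in early control libraries. All Fra2 libraries lay under all controls. The losses were −0.48 ± 0.16 early (adjusted p = 0.0276) and −0.49 ± 0.15 late (adjusted p = 0.0296), and −0.27 (adjusted p = 0.116) and −0.25 (adjusted p = 0.137) under gene-end factors. Each was also called in 10 of 15 fits that left out 1 library, with adjusted p up to 0.134 without early control 2 and 0.211 without late control 3. The firmest loss lay 9.0 kb past the start (156784174 to 156784675), at 0.997, 1.68 and 1.51 CPM in early Fra2 against 3.22, 2.90 and 3.50 in early control libraries (−1.23 ± 0.28, adjusted p = 0.00138), and it held in all 15 such fits and under gene-end factors. Further out, 28.5 kb past the start, a peak rose, at 2.94, 4.16 and 5.26 CPM in early Fra2 against 1.18, 1.31 and 1.82 in early control libraries (1.56 ± 0.35, adjusted p = 0.00123). In late cells 1 Myl9 peak, the one at the start, was called.

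Acta2 (chromosome 19, 34240336 to 34255585, minus strand), the usual marker of the myofibroblast state, had 0 of 12 peaks called higher by edgeR or DESeq2 in each treatment; at an unadjusted p under 0.05, 0 were higher early, 2 late and 2 with the inhibitor, and with gene-end factors edgeR called 2 late and 2 inhibitor gains. Lower calls numbered 3 early (25%, background 4.91%), 1 late and 0 with the inhibitor by edgeR, and 2, 1 and 0 by DESeq2. Inhibitor libraries had 5 peaks lower at an unadjusted p under 0.05. Under gene-end factors none of these losses was called, and without early control 3 there were 4 early, 1 late and 3 inhibitor losses. Its start-site peak was 20, 19.2 and 20.2 CPM in inhibitor, 25.4, 24.2 and 21.4 in early Fra2, 23.3, 23.4 and 24.6 in late Fra2, 24.4, 28.1 and 27.1 in late control and 29.5, 31.8 and 14.6 in early control libraries. Early control 3 lay under the other 14 libraries. The inhibitor difference was −0.38 (adjusted p = 0.255) and the early Fra2 difference −0.13 (adjusted p = 0.639); without early control 3 these were −0.63 (adjusted p = 0.00176) and −0.37 (adjusted p = 0.0308). The late difference was −0.16 (adjusted p = 0.571). A weak peak 8.5 kb upstream fell in both Fra2 comparisons, at 1.19, 0.799 and 0.649 CPM in early Fra2 and 0.728, 0.853 and 0.859 in late Fra2, against 1.87, 1.81 and 1.71 in late control and 2.25, 2.54 and 1.68 in early control libraries (early −1.28 ± 0.39, adjusted p = 0.0198; late −1.14 ± 0.39, adjusted p = 0.0486). Neither call passed under gene-end factors (early −1.07, adjusted p = 0.0545; late −0.91, adjusted p = 0.11). All Fra2 libraries lay under all controls. The early call was lost without early Fra2 2 (adjusted p = 0.0602), early Fra2 3 (0.076) or early control 2 (0.0858), and the late call was found in 4 of 15 fits that left out 1 library, with adjusted p up to 0.151 without late Fra2 1.

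Tpm2 and Tpm4, the other tropomyosins, had 0 of 25 peaks called higher by edgeR or DESeq2 in either Fra2 comparison. At an unadjusted p under 0.05, 4 were higher early and 2 late. With gene-end factors edgeR called 4 higher early and 2 late. Without early control 3, 1 peak of Tpm2 and 1 of Tpm4 were called higher early. The Tpm2 start-site peak (chromosome 4, 43523340 to 43523841) was 13, 14.3 and 15.4 CPM in inhibitor, 13.2, 13 and 12.8 in early Fra2, 11.2, 10.4 and 10.7 in late Fra2, 12.5, 17.4 and 16.6 in late control and 18.2, 18.1 and 15.1 in early control libraries. Late Fra2 libraries were lowest. The late loss was −0.53 ± 0.15 (adjusted p = 0.0179) and did not pass under gene-end factors (−0.29, adjusted p = 0.0869). It was called in 10 of 15 fits that left out 1 library, with adjusted p up to 0.115 without late control 2. Its early difference was −0.41 (adjusted p = 0.0591), and −0.48 (adjusted p = 0.00902, called) without early control 3. The neighbouring peak 1.0 kb upstream fell early by 0.51 (adjusted p = 0.0158), at 10.8, 10.9 and 10.3 CPM in early Fra2 against 15.7, 14.5 and 15.5 CPM in early control libraries, in all 15 fits that left out 1 library but not under gene-end factors (adjusted p = 0.0954). The Tpm4 start-site peak was within −0.35 to −0.23 in the treatments and not called. A Tpm4 peak 6.6 kb into the gene fell by 1.17 early (adjusted p = 0.00843, but 0.0971 without early Fra2 1). A peak 0.6 kb past the start fell by 0.49 late (adjusted p = 0.0343), which did not pass under gene-end factors (adjusted p = 0.182) and was called in 10 of 15 fits that left out 1 library, with adjusted p up to 0.15 without late Fra2 3.

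Among the actin-binding regulators, Tagln had 1 called peak, a gene-body loss of 0.81 with early Fra2 (adjusted p = 0.0245, but 0.114 under gene-end factors, 0.112 without early Fra2 1, 0.0825 without early control 1 and 0.083 without early control 3). Cnn1 had 0 of 4 called by edgeR or DESeq2 in any comparison, with 1 lower at an unadjusted p under 0.05, in inhibitor cells. The Tagln peak at its most accessible gene end was 20.2, 18.9 and 19.9 CPM in inhibitor, 21.6, 24.5 and 21.5 in early Fra2, 22.0, 21.7 and 21.9 in late Fra2, 23.5, 27.4 and 27.5 in late control and 25.3, 26.4 and 15 in early control libraries. Late Fra2 lay under late control without overlap, but the difference of −0.26 did not pass (adjusted p = 0.289). The Cnn1 start-site peak was 5.5, 6.45 and 6.37 CPM in inhibitor against 9.82, 7.83 and 5.88 in early control libraries, a difference of −0.41 (adjusted p = 0.216) that passed without early control 3 (−0.54, adjusted p = 0.0376).

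Smtn and Cald1 gained at single distant or internal peaks. The Smtn peak 26.9 kb upstream (chromosome 11, 3565912 to 3566413) was 4.48, 3.59 and 3.88 CPM in inhibitor, 8.07, 6.0 and 6.92 in early Fra2, 7.41, 8.27 and 6.75 in late Fra2, 4.48, 3.14 and 4.39 in late control and 2.58, 1.89 and 3.36 in early control libraries. Every Fra2 library was above every other library. The gains were 1.5 ± 0.21 early (adjusted p = 3.24e-07, the smallest of the 394 peaks) and 0.91 ± 0.18 late (adjusted p = 0.000624), and both held in all 15 fits that left out 1 library and under every other setting tried. Smtn peaks 18.9 and 28.8 kb upstream rose late, by 0.71 (adjusted p = 0.0173) and 0.62 (adjusted p = 0.00763). The call at 18.9 kb was lost without late Fra2 2 (adjusted p = 0.184) or late control 3 (0.108), and that at 28.8 kb without late control 3 (0.0578). A Smtn gene-body peak fell early by 1.19 (adjusted p = 0.0364), a call that did not pass under gene-end factors (adjusted p = 0.0967) and was found in 11 of 15 fits that left out 1 library, with adjusted p up to 0.21 without early Fra2 1. Cald1, with 137 peaks, had 3 gains and 1 loss early and 1 gain late. These were 2.19%, 0.73% and 0.73% of its peaks, under the 10.1%, 4.91% and 6.45% of all peaks. Its top peak, 167.9 kb past the start, was 4.65, 6.24 and 5.62 CPM in early Fra2 and 6.5, 4.52 and 4.51 in late control, against 3.01, 2.61 and 1.82 in early control libraries. It rose with early Fra2 (1.06 ± 0.22, adjusted p = 0.00033) and also between the control times (0.98 ± 0.22, adjusted p = 0.00527, but 0.0543 without late control 1). The peak at the second Cald1 start, whose upstream sequence holds TGANTCA, was not called (late −0.41, adjusted p = 0.0647).

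Summing counts over all peaks of a gene gave 1 value per gene, tested over 18297 genes. The Tpm1 sum was 418, 410 and 423 CPM in inhibitor, 444, 468 and 421 in early Fra2, 483, 481 and 486 in late Fra2, 377, 376 and 388 in late control and 391, 382 and 440 in early control libraries. Late Fra2 libraries were above all others. The change was 0.35 ± 0.04 late (adjusted p = 1.21e-05), called in every setting tried and 0.50 under gene-end factors. Early it was 0.14 ± 0.04 (adjusted p = 0.0229), and the early call was lost without early Fra2 1 (adjusted p = 0.0552), early Fra2 2 (0.104), early control 1 (0.0817) or early control 2 (0.134). Tpm1 was the 1 member called higher early and late, where 14.3% and 13.3% of genes were. Myl9 fell by 0.31 early (adjusted p = 0.00294), at 47.5, 48.6 and 47.8 CPM in early Fra2 against 58.6, 63.9 and 53.9 in early control libraries, and it was the 1 member lower (background 12.1%). In late cells Tpm2 (−0.26, adjusted p = 0.00297), Tpm4 (−0.18, adjusted p = 0.0188) and Myl9 (−0.19, adjusted p = 0.0486) fell (background 10.6%). These 4 losses did not pass under gene-end factors (−0.13, −0.10, −0.02 and −0.03). The late Tpm4 call was also lost without late Fra2 2 (adjusted p = 0.0923), late Fra2 3 (0.0828) or late control 2 (0.0685), and the late Myl9 call was found in 5 of 15 fits that left out 1 library, with adjusted p up to 0.249 without late Fra2 1. With the inhibitor Tpm4 fell by 0.18 (adjusted p = 0.0476; 1 of 10 lower against 2.68% of genes, and 0 higher against 2.34%), a call found in 3 of 15 fits that left out 1 library. Without early control 3, Acta2 also fell in early Fra2 (−0.22, adjusted p = 0.00206) and inhibitor cells (−0.30, adjusted p = 0.000312). The Tpm1 sum was then called higher with the inhibitor (0.11, adjusted p = 0.0371), against 0.05 (adjusted p = 0.544) in the fit of all libraries.

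**Figure D5:**
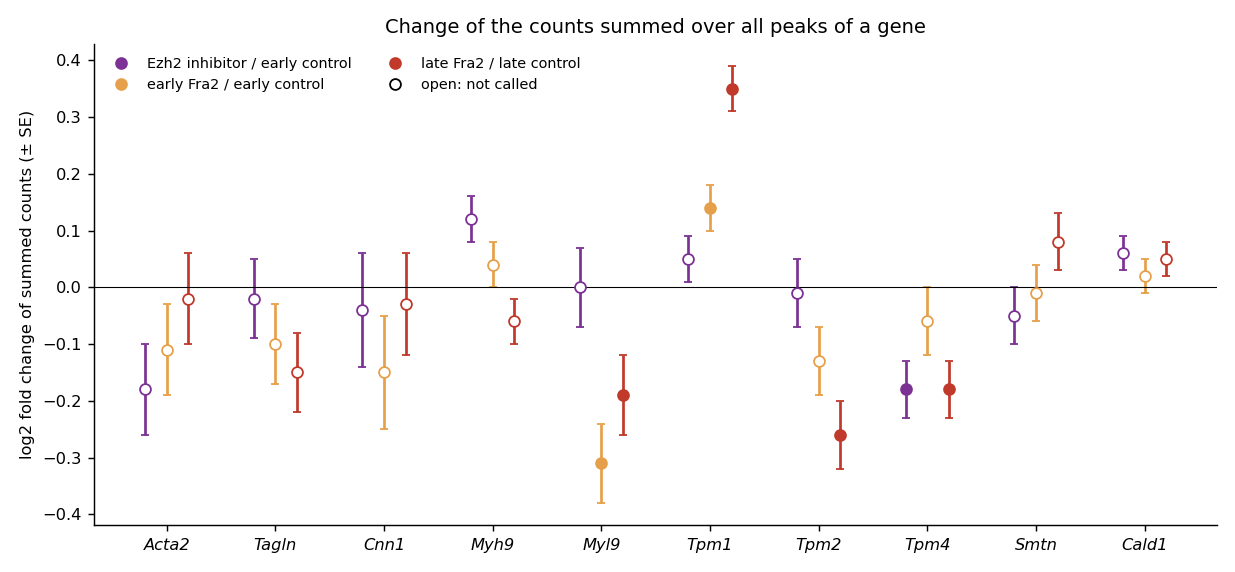
Log2 fold change ± SE of counts summed over all peaks of each gene (horizontal axis), for the Ezh2 inhibitor, early Fra2 and late Fra2 against their controls; filled points were called and open points were not. Tpm1 lies at 0.35 in late Fra2 cells and Myl9 at −0.31 in early Fra2 cells.

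Few of these peaks were called between the 2 control groups in the fit of all libraries. Late control cells had 3 of 394 peaks higher and 4 lower than early control cells (0.761% and 1.02%, against 2.04% and 1.24% of all peaks). Without early control 3 there were 12 higher and 8 lower (3.05% and 2.03%), and the share of all peaks in that fit is not given here. The higher count came to 8 without early control 1 and to 1 without late control 2 or early control 2, and the lower count to 1 without late control 1, late control 2 or early control 2 and to 2 without late control 3. Summed Myh9 counts rose by 0.15 (1 of 10 genes higher and 0 lower, against 2.46% and 2.12%; adjusted p = 0.0281, lost without late control 2 at 0.173). The late Fra2 effect was compared with the early one directly: edgeR and DESeq2 each called 0 of 394 peaks (background 0.0116% higher and 0.0819% lower), 44 had an unadjusted p under 0.05, and the smallest adjusted p was 0.104. For Tpm1 summed counts, the late effect exceeded the early by 0.21 ± 0.06 (adjusted p = 0.242; over all genes 0.0109% were called higher and 0.0601% lower). A difference between the late and early Tpm1 effects was therefore not shown. Early Fra2, inhibitor and late control comparisons share the early control libraries.

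The other genes of the pathway came from 2 lists. The control of contraction and of SRF (24 genes, 563 peaks) had 48 gains and 28 losses early and 29 gains and 19 losses late, or 8.53%, 4.97%, 5.15% and 3.37%, near the background. Mrtfb, another SRF cofactor, had a gene-body peak that rose by 1.27 early (adjusted p = 4.76e-07), at 9.78, 9.59 and 8.43 CPM in early Fra2 against 4.13, 4.28 and 2.66 in early control libraries. That peak was also higher in late than in early control cells (0.63, adjusted p = 0.0434). Rock2, encoding a kinase that keeps myosin active, fell by 1.26 at a gene-body peak, at 1.28, 1.6 and 1.37 CPM in early Fra2 against 3.65, 3.48 and 2.8 in early control libraries. In late cells a gene-body peak of Fhl2, a LIM protein that binds SRF, rose by 1.01. At Mrtfa, an SRF cofactor, peaks moved both ways: one in the gene body fell by 0.79 early (adjusted p = 0.00623) and 0.96 late (adjusted p = 0.0014), and one 2.4 kb upstream rose by 1.14 early (adjusted p = 2.01e-05). The late effect at the upstream peak differed from the early one by −1.33 (adjusted p = 0.016). There late control cells stood above early control cells by 1.13 (adjusted p = 0.000339). Mean levels were 8.21 CPM in early Fra2, 7.04 in late Fra2, 8.08 in late control and 3.71 in early control libraries. The late Fra2 difference itself was −0.19 (adjusted p = 0.499). Other actin and smooth muscle structural genes (31 genes, 977 peaks) had 78 gains and 45 losses early, 47 and 40 late, and 7 and 4 with the inhibitor. These were 7.98% and 4.61%, 4.81% and 4.09%, and 0.716% and 0.409%, near or under the background. A gene-body peak of Palld (palladin, an actin crosslinker) rose by 2.52 early, at 4.27, 3.84 and 3.31 CPM in early Fra2 against 0.483, 0.508 and 1.26 in early control libraries. The smooth muscle marker Lmod1 fell by 0.71 late at its gene end, and a peak 1.7 kb past Flnc rose by 0.96 with the inhibitor.

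The members did not move as 1 group across the 15 libraries. As a description of log2 summed counts, Pearson r was 0.88 between Tagln and Tpm2 and 0.76 between Tpm2 and Myl9, but −0.83 between Tpm1 and Tpm2 and −0.68 between Tpm1 and Myl9. These share library depth and scaling. The genes whose summed profile was most like the mean of the 10 members were Meioc (0.93), Ncbp3 (0.9), Nfkbil1, Rnmt and Mapk8ip3 (0.87 each). That mean, in standardised units, was lowest in early control 3 (−0.903) and early Fra2 3 (−0.855). It averages members with opposite profiles, and the likeness was not tested.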

How the data were processed

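Omni-ATAC-seq was analysed in 15 libraries, 5 groups of 3 by the sample titles. The authors deposited raw read counts per consensus peak, and peak lists per library with fold enrichment (a ratio) and −log10 p and q values. Per the submitters' processing notes, peaks came from MACS2 and coordinates are mm10, with version, aligner, read shift, duplicate handling and consensus method not given in the sources used here. A deposited score of the peaks was left out. Peaks were assigned to the nearest RefSeq (GRCm38.p6) protein-coding gene within 100 kb (1-based coordinates), which need not be the gene a peak regulates.

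Tests on counts used edgeR 4.0.16 under R 4.3.3 (quasi-likelihood F-test, TMM, default low-count filter, 1 fit of all libraries, Benjamini-Hochberg over all 206349 tested peaks or 18297 genes; called under 0.05). A gene-end peak is centred within 1 kb of either gene end. DESeq2 1.42.0, RLE, gene-end TMM factors, cyclic loess (limma 3.58.1), no filter, replicate block, fewer groups and leaving out each library were alternatives. In data simulated for early Fra2 against early control on 206349 peaks, 36 of 50 peaks changed by 1 (log2) were recovered, and 23 of 50 changed by −1. There 206149 peaks were left unchanged, far more than in the data, and the weakest peaks were not among those changed. These rates therefore do not give the sensitivity of the calls reported here. The floor covers counting error only.

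The members, lists and tests were chosen with earlier results of these data known. Named peaks were, per gene, the start-site peak (overlapping the RefSeq promoter window; for Tagln the most accessible gene-end peak), the most accessible peak, and the called peak of smallest p in each comparison and direction; other peaks described were chosen after their values were seen.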

Additional observations from a re-analysis of the deposited data

How the results depend on the processing

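Counts of member peaks called depended on the scaling and on the libraries kept. With TMM factors from gene-end peaks, early Fra2 gave 60 higher and 5 lower, late Fra2 66 and 0, the inhibitor 36 higher, and late control 16 higher; Tpm1 gains came to 21 early and 37 late, and member genes called to 4 early, 3 with the inhibitor and 2 in late control. With cyclic loess, 29 were lower early, 14 higher and 6 lower with the inhibitor, and 7 lower in late control. With only the groups compared, early Fra2 gave 9 higher and 4 lower (Tpm1 gains 3, genes 1), late Fra2 31 lower, the inhibitor 0, 0 and 0 genes, and late control 1 higher, 0 lower and 0 genes. DESeq2 gave 2 inhibitor genes and 2 late control losses. Peaks at gene ends alone gave 1 higher and 3 lower early, 1 and 4 late, 1 and 0 with the inhibitor, and 0 and 0 in late control; within 10 kb, 0 inhibitor losses were left.

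Leaving out 1 library at a time, early gains ran from 9 to 26 and losses from 10 to 30, late gains from 15 to 33 and losses from 0 to 29, inhibitor gains from 0 to 17 and losses from 0 to 9, and late control gains from 1 to 12 and losses from 1 to 8. Tpm1 gains ran from 3 to 14 early and 13 to 26 late, and genes from 1 to 3 early, 2 to 4 late, 0 to 3 with the inhibitor and 0 to 1 in late control. Of the values that changed sign, start-site log2 changes in early Fra2 ran from −0.37 to 0.05 at Acta2, −0.23 to 0.03 at Cald1, −0.31 to 0.03 at Cnn1 and −0.20 to 0.12 at Tagln, and with the inhibitor −0.14 to 0.05 at Myl9. Gene sums ran from −0.04 to 0.01 at Smtn in early Fra2, −0.04 to 0.00 at Acta2 and −0.08 to 0.02 at Cnn1 in late Fra2, and with the inhibitor −0.11 to 0.11 at Cnn1, −0.04 to 0.07 at Myl9, −0.06 to 0.05 at Tagln and −0.05 to 0.05 at Tpm2.

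Uncalled start-site values that changed sign with gene-end factors were, in early Fra2, Myh9 0.08, Acta2 0.08, Cald1 0.13, Cnn1 0.04, Tagln 0.20 and Tpm1 0.06, in late Fra2 Acta2 0.08 and Cnn1 0.09, and with the inhibitor Myl9 0.12. With cyclic loess they were Myh9 0.11, Cald1 0.08 and Tagln 0.09 early, Smtn 0.03, Myh9 0.07 (called −0.46 before), Acta2 0.15, Cald1 0.12 and Tagln 0.04 late, and Myh9 0.02 and Myl9 0.07 with the inhibitor. Gene sums that changed sign with gene-end factors were Acta2 0.07, Tagln 0.08, Cnn1 0.03, Tpm2 0.04, Tpm4 0.12 and Smtn 0.16 early, Acta2 0.14, Tagln 0.01, Cnn1 0.13 and Myh9 0.10 late, and Tagln 0.09, Cnn1 0.08, Tpm2 0.10 and Smtn 0.06 with the inhibitor. These factors move every peak by the same amount in a library. The causes of the other changes were not tested.

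Whether replicate numbers pair the samples was not settled. Correlations of same-numbered deviations ran from −0.192 to 0.262, and differently numbered pairs were not compared. With the replicate block, member peaks numbered 18 higher and 18 lower early, 28 and 8 late, and 8 and 1 with the inhibitor; inhibitor genes came to 0, and the Tagln start-site value early to 0.00. Depth limits weak peaks, and early control 3 held 6.75 M reads.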
